A study of Caenorhabditis elegans with 54 samples.

Results

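Messenger RNA bound to tagged ribosomes in the intestine of the worm Caenorhabditis elegans was set against messenger RNA bound to tagged ribosomes in its neurons. For each gene, the log2 ratio of ribosome immunoprecipitate (IP) over the total RNA of the same strain was taken in the intestine experiment and in the experiment that the labels call neurons B. The neurons B ratio was then subtracted from the intestine ratio, so that a positive difference means stronger enrichment in the intestine IP. The experiments hold 12 of the 54 samples of the series: 3 intestine IP, 3 intestine total RNA, 3 neurons B IP and 3 neurons B total RNA libraries. The intestine strain was WBM1470, genotype wbmIs131, in which the promoter of nep-17 drives a FLAG-tagged copy of the ribosomal protein gene rpl-22. The neurons B strain was WBM1471, genotype wbmIs133, in which the promoter of rab-3 drives the tagged gene. All animals were day 1 adults grown at 20 °C on OP50 bacteria after bleaching, from CRISPR-engineered lines that had been outcrossed to N2. Total RNA came from the whole lysate of the same strain, so it covered all tissues and carried the transgene as well. The design text of the series names WBM1471 for both experiments, and the sample labels were followed here. Each strain is 1 engineered line, and the cells in which its promoter is active set what its IP can hold. The labels do not say whether the replicates were separate cultures, so the p-values measure only the spread between these libraries.

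Ribosome IP recovers the messages on the ribosomes of a chosen cell type, because only those cells make the tagged ribosomal protein. The worm intestine is a tube of large cells that digests food, secretes hydrolases and antimicrobial proteins, stores fat, detoxifies and makes the yolk proteins taken up by oocytes. Neurons release small transmitters from synaptic vesicles and peptides from dense core vesicles, and many of them carry sensory cilia. Both cell types secrete by calcium-regulated exocytosis, so some secretion genes serve both.

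The deposited values were the authors' normalized counts, scaled within each experiment, so levels were compared only inside an experiment and ratios between experiments. The 12 libraries held an estimated 7.06 to 64 (in units of 1e6) counted reads, and intestine IP replicate 2 was the shallowest, with 34.4% of the listed genes at 0. A single counted read in that library was worth about 7.1 normalized counts, so differences of genes near 0 there depend on the pseudocount of 1 that was added before taking logs. Pearson correlations of log2 values across genes between replicates ran between 0.875 (intestine IP replicates 2 and 3) and 0.986.

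The promoter genes checked the labels. nep-17 (chromosome II, 13507819 to 13516478, WBcel235), a neprilysin-family metalloprotease gene, had 21998, 14083 and 26765 normalized counts in the intestine IP libraries, against 1758, 1694 and 2813 in intestine total RNA. In the neurons B experiment it had 4840, 9171 and 8331 in the IP libraries, against 3133, 5915 and 4193 in total RNA. The intestine groups were far apart, while the neurons B groups overlapped. nep-17 rose by 3.32 on the log2 scale in the intestine IP and its neurons B ratio of 0.75 did not pass the test, a difference of 2.57 ± 0.50 (SE; limma, Benjamini-Hochberg adjusted p = 0.00248; n = 3 per group).

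rab-3 (chromosome II, 5721767 to 5727853), which encodes the small GTPase of synaptic vesicles, had 90.8, 102 and 181 normalized counts in the intestine IP libraries, against 84.3, 41.7 and 155 in intestine total RNA. In the neurons B experiment it had 21364, 30839 and 27612 in the IP libraries, against 632, 238 and 298 in total RNA. The intestine groups overlapped, and every neurons B IP library was far above every total RNA library. The difference was −5.67 ± 0.69 (SE; limma adjusted p = 9.71e-05). rpl-22 itself, whose reads the transgene can add to, had log2 ratios of 0.86 in the intestine and 1.90 in neurons B, and the difference of −1.03 ± 0.65 did not pass (adjusted p = 0.266; it passed when every library was scaled to the same sum).

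**Figure D1:**
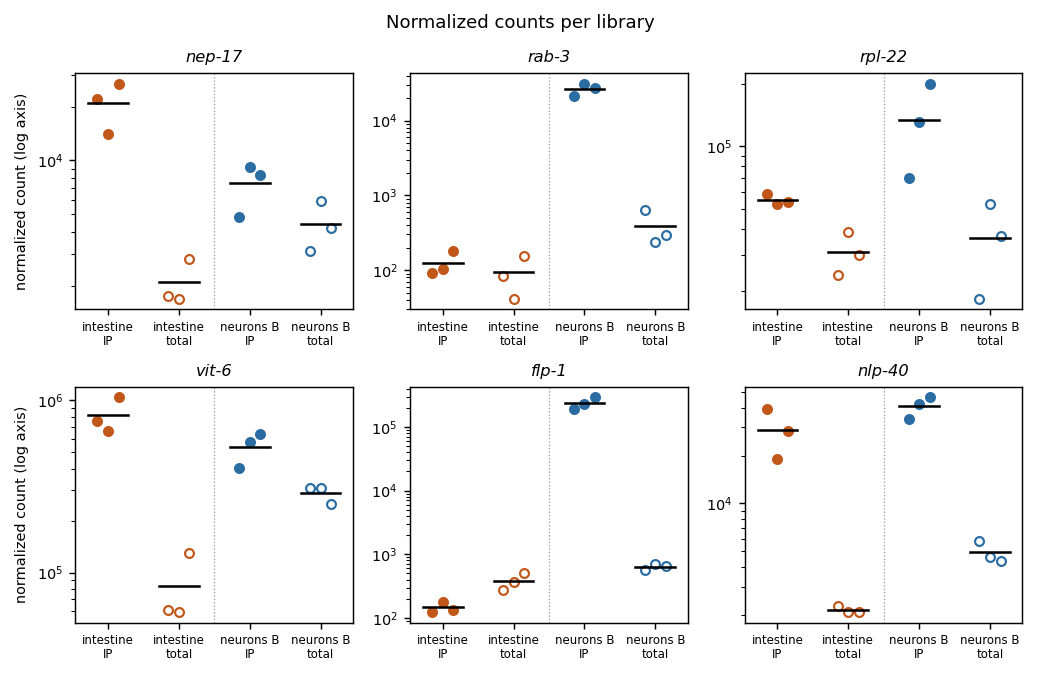
Normalized counts (log axis) of nep-17, rab-3, rpl-22, vit-6, flp-1 and nlp-40 in every library of the intestine IP, intestine total RNA, neurons B IP and neurons B total RNA groups; points are libraries and bars are means of 3. The rab-3 and flp-1 points of the neurons B IP stand far above the 3 other groups, while nlp-40 is high in both IPs.

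Lists of marker genes showed how clean each IP was. A set of 12 defining intestine genes took 8.22% to 9.11% of the intestine IP libraries, against 1.11% to 2.52% of intestine total RNA, and all 12 rose. The same 12 genes took 2.73% to 4.23% of the neurons B IP libraries, against 1.71% to 2.07% of neurons B total RNA, and 8 of them rose there too. Intestinal marker messages were therefore enriched in the neurons B IP as well, and the part of this in each intestinal difference below was not tested. A set of 12 defining neuron genes took 0.00729% to 0.0239% of the intestine IP libraries, against 0.0275% to 0.0583% of intestine total RNA, with none risen, 3 fallen and rgef-1 at 0 in 1 IP library. They took 1.96% to 2.11% of the neurons B IP libraries, against 0.0383% to 0.0734% of neurons B total RNA, and all 12 rose.

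Of 17495 genes listed in both experiments, 13459 had a mean of at least 10 normalized counts in both and were tested with limma for a difference in enrichment, at an adjusted p under 0.05. Enrichment was higher in the intestine for 1670 genes (12.4% of those tested) and higher in neurons B for 1676 genes (12.5%). Within the intestine experiment 2950 genes rose in the IP (21.9%) and 2952 fell (21.9%). Within the neurons B experiment 3377 genes rose (25.1%) and 3673 fell (27.3%). Since total RNA mixes all tissues, a message in fewer cells and a message with fewer copies per cell cannot be told apart in these ratios.

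The sides were nearly equal in number but not in size. Among the called genes, the median difference was 2.39 on the intestine side and −5.67 on the neurons B side. A difference of at least 4 on the log2 scale was seen for 50 genes on the intestine side and for 1180 on the neurons B side, and 331 genes passed 8 on the neurons B side against 0 on the intestine side. The balance of the counts rests on the authors' scaling. When every library was instead scaled to the same sum, the median difference of all tested genes moved to −0.38, against 0.38 with the authors' scaling, and 613 genes were higher in the intestine against 2077 in neurons B. With that scaling 22.8% of the calls were on the intestine side, against 49.9% with the authors' scaling and 35% when medians were aligned. All 613 intestine calls under equal sums and 1676 of its neurons B calls were calls under the authors' scaling, and 0 genes changed side. Counts below are for the authors' scaling. Equal sums move the differences toward neurons B, so the equal-sum count is given beside list counts on the intestine side, and on the neurons B side where it differs by over 1.5 times. Same-numbered IP and total RNA libraries deviated together in the intestine. With the replicate number as a block in both experiments, 2812 genes were higher in the intestine and 2089 in neurons B, and list counts with this block are given where they moved by over 1.5 times.

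**Figure D2:**
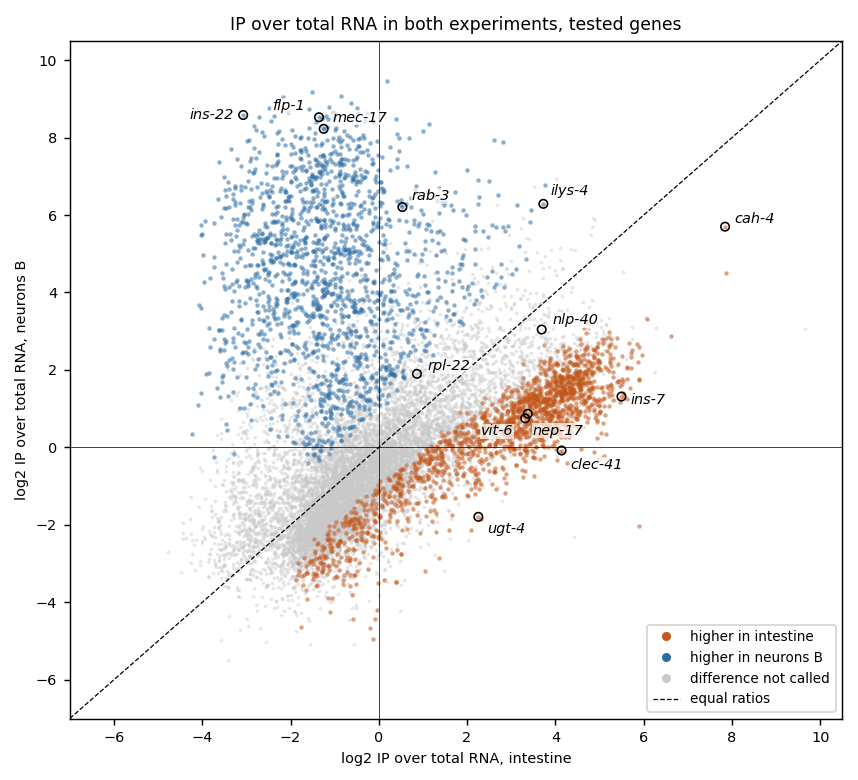
Log2 IP over total RNA of each of the 13459 tested genes, intestine on the horizontal and neurons B on the vertical axis, with genes higher in the intestine and genes higher in neurons B in colour. The 1676 genes higher in neurons B reach far above the diagonal, while the 1670 genes higher in the intestine lie closer to it.

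Joining the tests of each experiment, 1547 genes rose in both IPs and 1871 fell in both. Of the 1547 that rose in both, 585 were higher in the intestine, 100 were higher in neurons B and 862 had no called difference. A further 727 genes rose in the intestine IP, were not called in the neurons B IP and had a called difference. For 1027 genes the roles were exchanged, with a call in the neurons B IP and none in the intestine IP. Opposite moves were called for 396 genes that fell in the intestine IP and rose in the neurons B IP, and for 25 genes that rose in the intestine IP and fell in the neurons B IP.

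Yolk protein genes rose strongly in the intestine IP. All 6 vit genes, which encode the vitellogenin precursors of yolk, rose there with a median log2 ratio of 4.01, and none was called in neurons B, where the median was 1.29. vit-6 had 758147, 660707 and 1041369 normalized counts in the intestine IP libraries, against 60394, 59224 and 130659 in intestine total RNA. In neurons B it had 403153, 571913 and 637964 in the IP libraries, against 309780, 310439 and 251232 in total RNA. Each IP group lay above its total RNA group, by much more in the intestine. The vit-6 difference was 2.51 ± 0.71 (SE; limma adjusted p = 0.0218), and that of vit-2 was 2.34, which did not pass (adjusted p = 0.0685; it passed with the replicate block). Of the 6 differences 3 passed (2 with equal sums, 6 with the replicate block). Without 1 library the count ran between 0 and 5, and it was 0 without neurons B total RNA replicate 2 or 3. The vit-6 call was lost without intestine total RNA replicate 1 or 2 or neurons B total RNA replicate 2 or 3. vit-3, vit-4 and vit-5 are near-identical copies, so the split of reads between them is uncertain.

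Digestive proteases were called on the intestine side alone. Of 21 lysosomal and digestive proteases tested, of 22 listed, 18 were more enriched in the intestine (12 with equal sums) and 0 in neurons B, with a median difference of 2.50 against 0.38 over all tested genes. Of these 21, 20 rose in the intestine IP and 16 did so in the neurons B IP, with median ratios of 4.15 and 1.48. asp-17, an aspartyl protease gene, had 2575, 3868 and 1480 normalized counts in the intestine IP libraries, against 68.9, 81.9 and 42.8 in intestine total RNA. Its neurons B values were 329, 620 and 571 in the IP libraries, against 138, 193 and 176 in total RNA. All IP libraries were above their total RNA libraries, and the difference was 3.74 ± 0.59 (SE; limma adjusted p = 0.000627). The carboxypeptidase genes ctsa-1.2, ctsa-4.1 and ctsa-4.2, relatives of cathepsin A, differed by 3.81, 3.80 and 3.78.

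The apical face of the gut showed the same direction. Of 14 brush border and terminal web genes, 6 were more enriched in the intestine (2 with equal sums, 11 with the replicate block), with a median difference of 2.02. ifo-1, which organises the intermediate filaments under the apical membrane, differed by 3.01 (adjusted p = 0.00213), and ifb-2, an intestinal intermediate filament gene, by 2.50 (adjusted p = 0.00109). act-5, the microvillar actin, rose in both IPs (4.03 in the intestine, 2.22 in neurons B), and its difference of 1.82 did not pass (adjusted p = 0.0649; it passed without intestine IP replicate 2 and with the replicate block). erm-1, the ezrin-radixin-moesin protein that links actin to membranes, rose by 1.15 in the intestine IP and fell by 1.25 in the neurons B IP. Its difference of 2.41 passed (adjusted p = 0.00815), though not with equal sums. sax-7, an L1-type adhesion molecule on that list, was more enriched in neurons B at −1.87 (adjusted p = 0.0279), a call lost without intestine total RNA replicate 1 or 3, neurons B IP replicate 2 or 3 or neurons B total RNA replicate 2 or 3.

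Secreted defence proteins formed the largest family examined on the intestine side. Of 234 listed saposin-like, lysozyme and C-type lectin genes 140 were tested, and 67 were more enriched in the intestine (38 with equal sums) against 4 in neurons B, with a median difference of 2.34. clec-41, a C-type lectin gene, had 8871, 12803 and 6613 normalized counts in the intestine IP libraries, against 578, 430 and 548 in intestine total RNA. The neurons B IP libraries held 988, 1597 and 1086, against 1100, 1394 and 1320 in neurons B total RNA. The intestine groups were apart by more than 10-fold and the neurons B groups overlapped, with a difference of 4.22 ± 0.41 (SE; limma adjusted p = 1.46e-05). clec-218 differed by 4.22 as well. The 4 exceptions were spp-28 (−8.38), spp-24 (−5.68), clec-126 (−4.18) and the invertebrate-type lysozyme gene ilys-4 (−2.56), all more enriched in neurons B. spp-28 had 9033, 14639 and 21953 normalized counts in the neurons B IP, against 60.5, 76.8 and 67.7 in its total RNA. ilys-4 lies inside the span of atic-1 on the opposite strand, so its reads cannot be told apart from those of atic-1 without stranded counting.

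Fat metabolism shifted with the gut. Of 28 genes of peroxisomal and mitochondrial beta-oxidation, 21 were more enriched in the intestine (8 with equal sums) and 0 in neurons B, with a median difference of 2.18. acox-1.3, a peroxisomal acyl-CoA oxidase gene, differed by 3.42 (adjusted p = 0.00126). acdh-1, an acyl-CoA dehydrogenase of the propionate shunt, had 100231, 55912 and 65459 normalized counts in the intestine IP libraries, against 12626, 9009 and 7899 in intestine total RNA. Its counts were 30516, 45228 and 34248 in the neurons B IP libraries, against 26393, 29427 and 30925 in neurons B total RNA. Only the intestine groups were apart, with a difference of 2.56 ± 0.44 (SE; limma adjusted p = 0.0011). Of 24 tested genes of fatty acid synthesis, desaturation and elongation, 12 were more enriched in the intestine (4 with equal sums) and 0 in neurons B, with a median of 1.86. elo-5, the elongase that makes monomethyl branched-chain fatty acids, differed by 3.41 (adjusted p = 0.00146), and elo-1, an elongase of polyunsaturated fatty acids, by 2.16 (adjusted p = 0.00204, lost with equal sums). daf-36, the Rieske oxygenase that takes cholesterol toward the dafachronic acid hormones, differed by 3.14 (adjusted p = 0.00377).

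The calls of 2 detoxification families were mostly on the intestine side. Their calls on the neurons B side were a smaller share than the 12.5% of all tested genes. Of 53 tested UDP-glucuronosyltransferases, which attach sugars to lipophilic compounds, 30 were more enriched in the intestine (20 with equal sums) and 1 in neurons B (2 with the replicate block), with a median difference of 2.49. ugt-23 had 3882, 3626 and 2360 normalized counts in the intestine IP libraries, against 295, 274 and 448 in intestine total RNA, and differed by 2.81 (adjusted p = 0.000579). The exception was ugt-50, with 10788, 11747 and 14457 in the neurons B IP libraries, against 349, 410 and 407 in neurons B total RNA. It also rose in the intestine IP (1.90), by less than in neurons B (4.98), a difference of −3.08 (adjusted p = 0.000758). Of 56 tested cytochrome P450 genes, 19 were more enriched in the intestine (10 with equal sums), with a median of 1.53, and cyp-35A2 differed by 3.52 (adjusted p = 0.000532). Of the P450 genes, 2 were more enriched in neurons B (4 without intestine IP replicate 2), and cyp-36A1 differed by −2.63 (adjusted p = 0.00524).

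Glutathione S-transferases were called mainly on the intestine side. Of 33 tested, 12 were more enriched in the intestine (6 with equal sums), with a median difference of 1.44. The 2 called on the neurons B side, gst-40 and gst-5, are a smaller share than the 12.5% of all tested genes. That count was 1 without any single library other than intestine IP replicate 1 or 2, intestine total RNA replicate 3 or neurons B IP replicate 1. gst-6 had 2196, 3189 and 1322 normalized counts in the intestine IP libraries, against 45.4, 45.6 and 69.5 in intestine total RNA, and differed by 3.49 (adjusted p = 0.00153). gst-40 had 0, 35.4 and 2.64 normalized counts in the intestine IP libraries and 2760, 4048 and 4511 in the neurons B IP libraries, against 36.6, 26.8 and 25.5 in neurons B total RNA. Its difference was −8.80 (adjusted p = 0.000696). Among P-glycoproteins and their haf relatives, which export drugs and lipids, 6 of 19 tested were more enriched in the intestine (2 with equal sums), with a median of 0.81. The neighbouring genes pgp-3 (X, 11352156 to 11357094) and pgp-4 (X, 11357816 to 11364050) parted, at 3.14 (adjusted p = 0.000816) and −2.50 (adjusted p = 0.0213, lost without neurons B IP replicate 2).

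Transport and haem handling followed the gut with exceptions. Of 33 tested nutrient and ion transporters, 14 were more enriched in the intestine (6 with equal sums) and 3 in neurons B (5 without intestine IP replicate 3), with a median of 1.66. nhx-2, the apical sodium-proton exchanger, had 6104, 4422 and 2339 normalized counts in the intestine IP libraries, against 400, 248 and 155 in intestine total RNA, and differed by 3.47 (adjusted p = 0.000779). nac-3, a dicarboxylate transporter gene, had 110, 37.8 and 34.4 in the intestine IP libraries, against 171, 137 and 124 in intestine total RNA. In neurons B it had 6060, 6269 and 5376 in the IP libraries, against 586, 326 and 472 in total RNA. It fell in the intestine IP and rose in the neurons B IP, a difference of −5.14 (adjusted p = 6.49e-05). The 9 haem transport genes had median ratios of 3.93 in the intestine and 1.47 in neurons B. hrg-3 encodes a secreted peptide that carries haem from gut to embryos. It had 497, 672 and 188 normalized counts in the intestine IP libraries, against 12.1, 4.00 and 3.86 in intestine total RNA. The hrg-3 difference was 3.66 (adjusted p = 0.0141). Its mean in intestine total RNA was under the level required for testing. In the intestine experiment hrg-3 was therefore tested only because of its high IP, the group in which it was enriched.

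Regulators of intestinal genes had a smaller median difference than the enzyme lists above. Of 20 intestinal transcription factors, 5 were more enriched in the intestine (8 without intestine IP replicate 2, 8 with the replicate block, 1 with equal sums), and the median difference of 0.73 became −0.06 with equal sums. nhr-68, a nuclear receptor of the propionate shunt regulation, differed by 3.40 (adjusted p = 0.000147). elt-2, the GATA factor that specifies intestinal genes, rose in both IPs (3.40 in the intestine, 1.97 in neurons B), and its difference of 1.44 did not pass (adjusted p = 0.198; it passed without intestine IP replicate 2 and with the replicate block). The genes with the largest positive differences, among symbol-bearing genes at or above the median level, were gfi-1 (4.35), clec-41, clec-218, drd-1 (3.96), gba-4 (3.93), ctsa-1.2, cbl-1 (3.81), ctsa-4.1, nrf-6 (3.78) and ctsa-4.2. nrf-6 is known from mutants that resist the antidepressant fluoxetine, and gba-4 is a glucocerebrosidase gene.

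**Figure D3:**
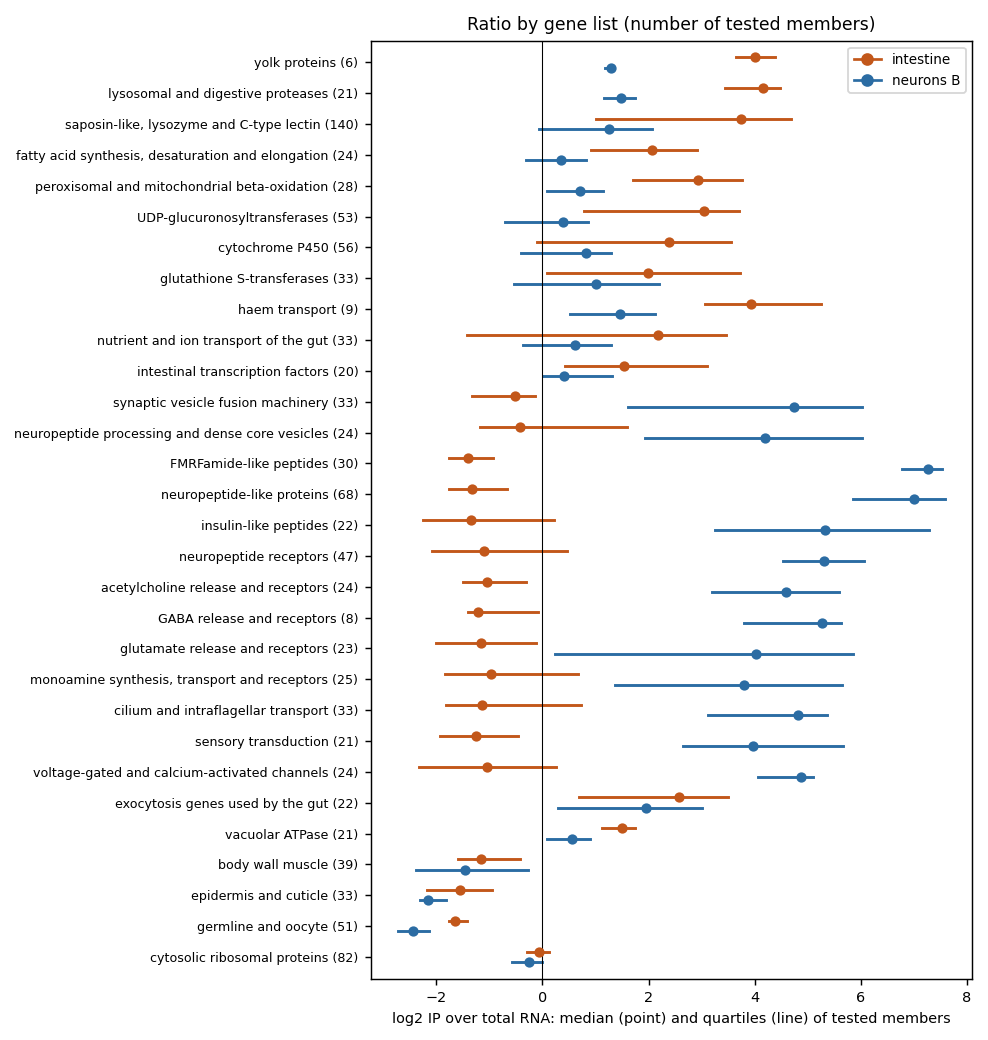
Median log2 IP over total RNA of each gene list, with quartiles over its tested members, in the intestine and in neurons B. The intestinal lists have medians above 0 in both experiments, while most neuronal lists have medians below 0 in the intestine, and the peptide, transmitter and cilium lists have medians between 3 and 8 in neurons B.

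Neuropeptide genes set the neurons B side apart. Of 30 tested FMRFamide-like peptide genes (31 listed), 29 were more enriched in neurons B and 0 in the intestine, with a median difference of −8.77. All 30 rose in the neurons B IP, with a median ratio of 7.27, and 19 fell in the intestine IP. flp-1 (chromosome IV, 9144705 to 9146128) had 124.6, 178.7 and 134.5 normalized counts in the intestine IP libraries, against 272, 366 and 509 in intestine total RNA. Its neurons B values were 190373, 231115 and 293122 in the IP libraries, against 565, 700 and 649 in total RNA. The intestine IP libraries lay below their total RNA and the neurons B IP libraries above theirs, a difference of −9.88 ± 0.40 (SE; limma adjusted p = 5.89e-08). flp-34 was the member that rose in both IPs, by 1.48 in the intestine and 6.25 in neurons B, a difference of −4.77 (adjusted p = 0.000664).

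Of 68 tested neuropeptide-like protein genes (77 listed), 55 were more enriched in neurons B and 1 in the intestine (0 with equal sums, 3 with the replicate block), with a median of −8.46. nlp-76 had 3.06, 0 and 2.63 normalized counts in the intestine IP libraries, against 15.99, 23.5 and 36.1 in intestine total RNA. The neurons B IP libraries held 7767, 8218 and 10248, against 49.1, 29.8 and 46.5 in neurons B total RNA. The groups did not overlap in either experiment, and the difference was −11.04 (adjusted p = 2.12e-06). pdf-1, the pigment-dispersing factor of locomotor arousal circuits, differed by −8.63 (adjusted p = 1.36e-06). The gene on the intestine side was nlp-36, with 26003, 26804 and 18965 normalized counts in the intestine IP libraries, against 1508, 1821 and 1108 in intestine total RNA. It rose in both IPs (4.03 in the intestine, 2.13 in neurons B), and its difference of 1.89 passed (adjusted p = 0.00677), though not with equal sums. nlp-27, one of a cluster of antimicrobial peptide genes of the epidermis, had ratios of 0.02 in the intestine and −1.48 in neurons B, and its difference of 1.50 did not pass (adjusted p = 0.171; it passed with the replicate block).

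Insulin-like peptides were called mainly on the neurons B side. Of 38 listed genes 22 were tested, and 15 were more enriched in neurons B and 1 in the intestine (1 with equal sums, 2 with the replicate block, 2 without intestine IP replicate 3 or neurons B IP replicate 3), with a median of −7.33. That 1 gene is a smaller share than the 12.4% of all tested genes called on the intestine side. ins-22 had 0, 0 and 9.69 normalized counts in the intestine IP libraries, against 16.4, 12.7 and 25.7 in intestine total RNA. Its counts were 7791, 9075 and 9945 in the neurons B IP libraries, against 8.04, 45.2 and 28.9 in neurons B total RNA, and its difference of −11.65 was the most negative of the called genes (adjusted p = 3.54e-05). daf-28, an insulin of sensory neurons that promotes reproductive growth, differed by −7.90 (adjusted p = 2.12e-06). ins-7 went the other way, with 1224, 870 and 1493 normalized counts in the intestine IP libraries, against 20.0, 24.8 and 31.1 in intestine total RNA. In neurons B it had 203, 228 and 175 in the IP libraries, against 143, 59.0 and 61.2 in total RNA. ins-7, an insulin-like peptide known from both gut and neurons, rose in both IPs and differed by 4.18 ± 0.62 (SE; limma adjusted p = 0.000392).

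**Figure D4:**
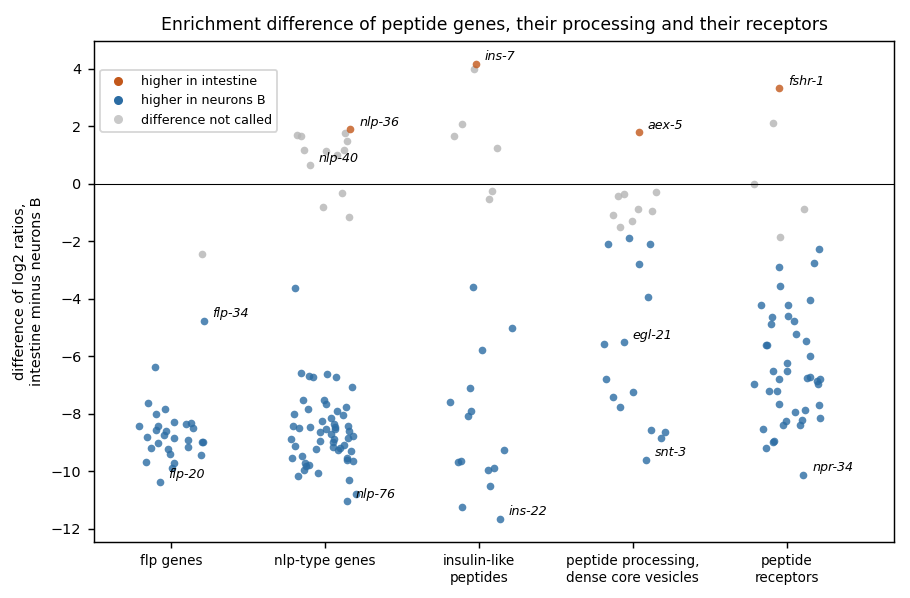
Difference in log2 enrichment, intestine minus neurons B, of every tested gene of 5 peptide and receptor families; points are genes, coloured where the difference was called. Most points lie below −4, and ins-7 (4.18) and fshr-1 (3.32) are the called points farthest above 0.

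The machinery that makes and senses peptides followed. Of 24 tested genes of peptide processing and dense core vesicles, 15 were more enriched in neurons B and 1 in the intestine (0 with equal sums), with a median of −2.45. egl-3, the proprotein convertase that cuts peptide precursors, had 453, 538 and 651 normalized counts in the intestine IP libraries, against 627, 666 and 2109 in intestine total RNA. Its neurons B values were 198137, 229510 and 259690 in the IP libraries, against 8260, 2366 and 2463 in total RNA, a difference of −6.79 (adjusted p = 3.2e-05). egl-21, the carboxypeptidase E that acts next, differed by −5.51 (adjusted p = 5.54e-05), and sbt-1, the chaperone of egl-3, by −8.84 (adjusted p = 2.89e-07; chosen after its values were seen, as were elt-2, snt-1, ric-4, unc-13, eat-4, dat-1, bas-1, ben-1, unc-7, unc-9, aex-1 and unc-64). The exception on the intestine side was aex-5, a convertase of the gut (1.80, adjusted p = 0.00413, lost with equal sums).

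Of 103 listed neuropeptide receptor genes 47 were tested, and 42 were more enriched in neurons B against 1 in the intestine (1 with equal sums, 2 without intestine IP replicate 2), with a median of −6.50. npr-34 had 0, 0 and 4.33 normalized counts in the intestine IP libraries, against 12.4, 13.6 and 36.8 in intestine total RNA. The neurons B IP libraries held 2221, 2995 and 2894, against 12.6, 38.9 and 35.2 in neurons B total RNA, a difference of −10.12 (adjusted p = 3.32e-05). fshr-1, a glycoprotein hormone receptor relative known for gut immunity, had 1856, 2729 and 2160 in the intestine IP libraries, against 200, 161 and 271 in intestine total RNA. Its counts were 722, 976 and 680 in the neurons B IP libraries, against 1192, 514 and 635 in neurons B total RNA, where the groups overlapped. It differed by 3.32 (adjusted p = 0.000388).

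A gene had to reach a mean of 10 in both tables, so members too low in the intestine experiment were not tested and the tested members are not all members. A high neurons B IP was enough to pass in the neurons B table, and a high intestine IP was enough in the intestine table. With a filter on total RNA only, 13442 genes were tested, and 1636 were higher in the intestine against 1810 in neurons B. Only 23 of 860 listed chemoreceptor genes were tested, and 3 were more enriched in neurons B against 2 in the intestine (0 with equal sums, 4 with the replicate block). srv-1, on the intestine side (2.41, adjusted p = 0.0159), rose in the intestine IP.

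Synaptic vesicle genes were called on the neurons B side. Of 33 genes of synaptic vesicle fusion, 24 were more enriched in neurons B and 0 in the intestine (1 with the replicate block), with a median difference of −4.40. snt-1, the synaptotagmin calcium sensor, had 69.6, 134 and 35.5 normalized counts in the intestine IP libraries, against 57.8, 103.2 and 132.7 in intestine total RNA. In neurons B it had 21756, 28696 and 32949 in the IP libraries, against 252, 182 and 193 in total RNA, a difference of −7.45 (adjusted p = 6.08e-06). The intestine groups overlapped and the neurons B groups were apart. Values of the genes for the SNARE fusion proteins ranged widely. ric-4, the SNAP-25 SNARE, differed by −8.46 (adjusted p = 0.000134), snb-1, synaptobrevin, by −3.31 (adjusted p = 0.000625), and unc-64, syntaxin, by 0.83, which did not pass (adjusted p = 0.179). unc-13, the priming factor, differed by −4.40 (adjusted p = 0.00217).

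Transmitter genes were called mainly on the neurons B side. In the intestine IP, 4 of 24 tested acetylcholine genes, 1 of 8 GABA genes and 7 of 23 glutamate genes fell, while 0, 1 and 3 rose. Over all tested genes 21.9% fell and 21.9% rose there, so only the glutamate falls were a larger share. Of the 24 tested genes of acetylcholine release and reception, 17 were more enriched in neurons B and 0 in the intestine, with a median of −5.49. unc-17, the vesicular acetylcholine transporter, had 13.98, 14.65 and 30.4 normalized counts in the intestine IP libraries, against 40.2, 38.9 and 87.8 in intestine total RNA. Its neurons B values were 13032, 16785 and 19376 in the IP libraries, against 84.2, 101 and 90.6 in total RNA, a difference of −8.88 (adjusted p = 1.11e-06). unc-17 shares its locus with cha-1, so the split of reads between them is uncertain. For GABA, 7 of 8 tested genes were more enriched in neurons B, and unc-25, glutamate decarboxylase, differed by −8.54 (adjusted p = 1.92e-07). For glutamate, 16 of 23 were more enriched in neurons B, among them eat-4, the vesicular glutamate transporter (−8.10, adjusted p = 1.45e-05). The glutamate exception was glc-1, a glutamate-gated chloride channel and ivermectin target, with 1664, 668 and 5836 normalized counts in the intestine IP libraries, against 212, 181 and 411 in intestine total RNA. It differed by 3.57 (adjusted p = 0.0114, lost with equal sums).

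The monoamine list held calls on both sides. Of 25 tested genes, 16 were more enriched in neurons B and 3 in the intestine (3 with equal sums), with a median of −3.58. These 3 are about the same share as the 12.4% of all tested genes called on the intestine side. octr-1, an octopamine receptor, differed by −9.51 (adjusted p = 3.59e-06), and dat-1, the dopamine reuptake transporter, by −7.41 (adjusted p = 0.00118). cat-4, the GTP cyclohydrolase that starts synthesis of the tetrahydrobiopterin cofactor, had 13548, 8597 and 16633 normalized counts in the intestine IP libraries, against 560, 443 and 816 in intestine total RNA. The neurons B IP libraries held 3981, 5284 and 4718, against 851, 1857 and 1503 in neurons B total RNA, and it rose in both IPs with a difference of 2.61 (adjusted p = 0.00196). ptps-1, the next enzyme of that pathway, differed by 3.63 (adjusted p = 0.0067). qdpr-1, the reductase that regenerates the cofactor, differed by −0.42, which did not pass (adjusted p = 0.428). The third call was amx-3, of the amine oxidase family (2.67, adjusted p = 0.00753). bas-1, the aromatic amino acid decarboxylase that makes dopamine and serotonin, rose in both (3.20 in the intestine, 3.05 in neurons B), with a difference of 0.14 ± 0.59 (SE; adjusted p = 0.886).

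Cilium and sensory genes were also on the neurons B side. Of 33 tested cilium and intraflagellar transport genes (55 listed), 25 were more enriched in neurons B and 0 in the intestine, with a median of −5.48, and osm-5, an intraflagellar transport subunit, differed by −9.68 (adjusted p = 0.00122). Of 21 tested sensory transduction genes, 14 were more enriched in neurons B and 0 in the intestine, with a median of −5.26. mec-17, the alpha-tubulin acetyltransferase of touch neurons, had 21.3, 90.6 and 47.1 normalized counts in the intestine IP libraries, against 76.7, 131 and 128 in intestine total RNA. Its counts were 41265, 61374 and 72129 in the neurons B IP libraries, against 151, 245 and 182 in neurons B total RNA, a difference of −9.47 (adjusted p = 1.26e-06). mec-10, a degenerin channel subunit for touch, differed by −9.82 (adjusted p = 0.0013). gcy-33, a soluble guanylyl cyclase of oxygen-sensing neurons, differed by −9.33 (adjusted p = 4.28e-05), and 7 of the 10 tested guanylyl cyclases were more enriched in neurons B. daf-7, the TGF-beta ligand of a sensory neuron pair, differed by −7.21 (adjusted p = 2.84e-06).

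Excitability genes followed the same side. Of 24 tested voltage-gated and calcium-activated channel genes, 21 were more enriched in neurons B and 0 in the intestine (1 without intestine IP replicate 2), with a median of −5.94. slo-1, the calcium-activated potassium channel, had 4.71, 0 and 54.4 normalized counts in the intestine IP libraries, against 55.3, 46.4 and 273 in intestine total RNA. In neurons B it had 2791, 3605 and 3474 in the IP libraries, against 87.3, 143.8 and 97.2 in total RNA, a difference of −8.64 (adjusted p = 0.00164). Of 30 tested twk potassium leak channels, 14 were more enriched in neurons B, with a median of −2.27, and twk-14 differed by −8.91 (adjusted p = 0.000286). Of 43 axon guidance and neuronal cytoskeleton genes, 29 were more enriched in neurons B, with a median of −3.39. zig-2, a secreted immunoglobulin-domain protein of neurons, differed by −10.44 (adjusted p = 0.000378).

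Among neuronal identity transcription factors, 16 of 25 tested (35 listed) were more enriched in neurons B and 1 in the intestine, with a median of −4.97. The intestine count was 0 with equal sums and 0 without intestine total RNA replicate 2. unc-42, a homeodomain factor of command interneurons and other cells, had 0, 0 and 34.5 normalized counts in the intestine IP libraries and 4564, 4972 and 5736 in the neurons B IP libraries, against 78.3, 26.8 and 47.3 in neurons B total RNA. Its log2 ratios were −3.26 in the intestine and 6.74 in neurons B, and the difference passed (adjusted p = 0.000721). Of 45 tested ceh homeobox genes (61 listed), 17 were more enriched in neurons B, with a median of −1.85, and ceh-62 differed by −7.93 (adjusted p = 0.000286). ceh-60, a PBX-type homeobox gene known to regulate yolk production in the gut, had 1116, 611 and 1211 in the intestine IP libraries, against 70.6, 53.6 and 99.3 in intestine total RNA. It differed by 2.23 (adjusted p = 0.0101), lost with equal sums. Of 17 neuronal splicing and RNA-binding factors, 5 were more enriched in neurons B (8 with equal sums), with a median of −1.23, and fox-1 fell in the intestine IP (−1.61) and rose in the neurons B IP (1.53), a difference of −3.14 (adjusted p = 0.00282).

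Secretion genes that serve the gut were shared in part. Of 22 tested genes that gut secretion uses, 15 rose in the intestine IP and 14 in the neurons B IP. Of these 22, 7 were more enriched in the intestine (2 with equal sums) and 3 in neurons B (5 with the replicate block), and the median difference of 0.75 became −0.04 with equal sums. nlp-40, the gut peptide that triggers the defecation motor step through neurons, had 39378, 19070 and 28639 normalized counts in the intestine IP libraries, against 2281, 2097 and 2092 in intestine total RNA. Its neurons B values were 33763, 42141 and 46382 in the IP libraries, against 5812, 4622 and 4373 in total RNA. Both IPs were far above their total RNA, with log2 ratios of 3.69 in the intestine and 3.04 in neurons B, and the difference of 0.64 ± 0.40 did not pass (adjusted p = 0.262). The aex genes, named for a defecation defect shared by gut secretion mutants, parted. aex-4, a SNAP-25 relative of the gut, differed by 3.04 (adjusted p = 0.00217), and aex-1, a UNC-13 relative, by 2.63 (adjusted p = 0.0109, lost with equal sums). aex-3, a RAB-3 exchange factor, differed by −2.85 (adjusted p = 0.0205), and aex-6, the RAB-27 GTPase, by −2.72 (adjusted p = 0.00633). aex-6 rose in both IPs (2.86 in the intestine, 5.58 in neurons B). unc-31, the CAPS protein of dense core vesicle release, had 3.40, 28.3 and 14.3 normalized counts in the intestine IP libraries and 1700, 2458 and 1249 in the neurons B IP libraries, against 47.3, 46.6 and 72.3 in neurons B total RNA. Its difference was −7.39 (adjusted p = 0.000821).

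**Figure D5:**
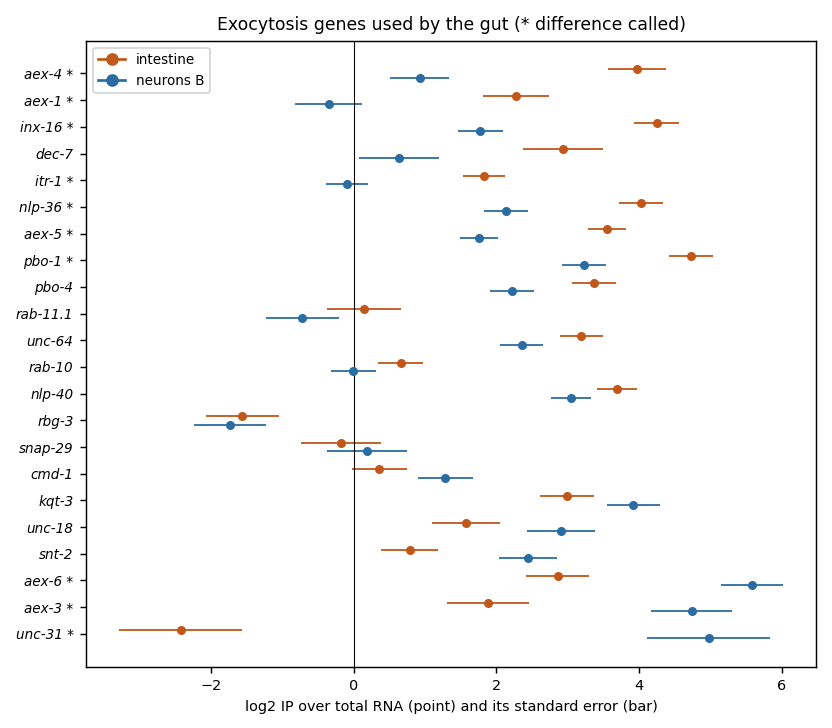
Log2 IP over total RNA with SE of the 22 tested exocytosis genes used by the gut, in the intestine and in neurons B; an asterisk marks a called difference. nlp-40 and unc-64 have high ratios in both, aex-4 is higher in the intestine and unc-31 is high only in neurons B.

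Some paralogues of shared complexes were called on opposite sides. Among the a subunits of the vacuolar proton pump, vha-6, the apical gut subunit, had 27604, 35236 and 16345 normalized counts in the intestine IP libraries, against 1973, 2157 and 1575 in intestine total RNA, and differed by 2.77 (adjusted p = 0.00145). unc-32, the neuronal a subunit, had 12971, 15484 and 14539 in the neurons B IP libraries, against 3752, 3738 and 3628 in neurons B total RNA, and differed by −1.69 (adjusted p = 0.00496). Of all 21 pump genes, 2 were more enriched in the intestine (14 without intestine IP replicate 2, 5 with the replicate block, 1 with equal sums) and 1 in neurons B. With all libraries and no block, both are smaller shares than the 12.4% and 12.5% of all tested genes, and 18 pump genes had no called difference. Of 22 tested innexins, the subunits of gap junctions, 5 were more enriched in the intestine (8 without intestine IP replicate 2, 3 with equal sums) and 6 in neurons B. The adjacent genes inx-15, inx-16 and inx-17 on chromosome I differed by 2.63, 2.48 and 3.32 (adjusted p = 0.000476, 0.00148 and 0.000118). inx-19 differed by −9.18 (adjusted p = 0.000772), unc-9 by −6.90 (adjusted p = 0.00506) and unc-7 by −6.23 (adjusted p = 0.00996).

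Tubulins behaved in the same way. Of 13 tested, 6 were more enriched in neurons B and 1 in the intestine (1 with equal sums, 2 with the replicate block, 2 without intestine IP replicate 3 or neurons B total RNA replicate 1). mec-12, the alpha-tubulin of touch neurons, differed by −8.40 (adjusted p = 6.5e-07), ben-1, the beta-tubulin targeted by benzimidazole drugs, by −6.60 (adjusted p = 1.45e-05) and tbb-4 by −8.45 (adjusted p = 0.00403). tba-7 had 1481, 4684 and 1632 normalized counts in the intestine IP libraries, against 85.4, 128.9 and 131.3 in intestine total RNA, and differed by 2.31 (adjusted p = 0.0114). tbb-2, a beta-tubulin of general use, differed by −1.22, which did not pass (adjusted p = 0.0742; it passed with equal sums, with the replicate block and without neurons B IP replicate 1). The catalase gene ctl-1 differed by 2.34 (adjusted p = 0.00498), and sod-3, a mitochondrial superoxide dismutase, by −7.18 (adjusted p = 0.00289). sod-3 had 3.08, 0 and 39.96 normalized counts in the intestine IP libraries and 744, 1065 and 1092 in the neurons B IP libraries, against 30.8, 65.1 and 62.4 in neurons B total RNA. sod-1, the cytosolic enzyme, rose in both (1.3 in the intestine, 1.13 in neurons B), with a difference of 0.17 ± 0.61 (SE; adjusted p = 0.867). ctl-1 lies beside the closely similar ctl-2, so the split of reads between them is uncertain.

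Some genes rose strongly in both IPs. cah-4, a carbonic anhydrase gene, had 639814, 181301 and 690761 normalized counts in the intestine IP libraries, against 1671, 1525 and 2596 in intestine total RNA. The neurons B IP libraries held 265974, 411447 and 257006, against 9217, 4722 and 4610 in neurons B total RNA. Its log2 ratios were 7.84 in the intestine and 5.70 in neurons B, and the difference of 2.14 (adjusted p = 0.0439) was lost with equal sums and without any single library other than intestine IP replicate 2, intestine total RNA replicate 3 and neurons B IP replicate 2. add-1, adducin of the membrane skeleton, rose by 4.36 in the intestine and 4.01 in neurons B, a difference of 0.35 (adjusted p = 0.706). twk-46 rose by 3.90 in the intestine and 5.09 in neurons B, a difference of −1.19 (adjusted p = 0.0667; it passed with equal sums, with the replicate block, without neurons B IP replicate 1 and without neurons B total RNA replicate 2). atic-1, of purine synthesis, rose by 3.71 in the intestine and 4.37 in neurons B, a difference of −0.66 (adjusted p = 0.361).

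Germline messages fell in both IPs, while lists of other tissues fell in part. Of 51 germline and oocyte genes, 48 fell in the intestine IP and 51 in the neurons B IP, with median ratios of −1.65 and −2.43. Their summed share was 0.249% to 0.385% of the intestine IP libraries, against 1.93% to 2.52% of intestine total RNA, and 0.245% to 0.705% of the neurons B IP libraries, against 2.35% to 2.96% of neurons B total RNA. Of 39 body wall muscle genes, 19 fell in the intestine IP and 22 in the neurons B IP, and 4 rose in neurons B. zyx-1, zyxin of muscle attachments, was among them, with 28002, 36964 and 34245 normalized counts in the neurons B IP libraries, against 5336, 4376 and 4387 in neurons B total RNA, and a difference of −3.80 (adjusted p = 0.000177). Body wall muscle genes together took 0.193% to 0.254% of the intestine IP libraries, against 0.856% to 1.21% of intestine total RNA, and 0.362% to 0.439% of the neurons B IP libraries, against 1.06% to 1.42% of neurons B total RNA. Of 33 epidermis and cuticle genes and 18 pharynx genes tested, 0 had a called difference with limma (3 and 2 with the replicate block, 1 and 4 at an unadjusted p under 0.05), and 0 rose in either IP. Of 10 tested glia genes, 4 fell and 0 rose in the intestine IP, and 1 fell and 1 rose in the neurons B IP, with medians of −1.25 and 0.11. Of these 10, 2 were more enriched in neurons B (4 with the replicate block, between 1 and 4 without 1 library), against 12.5% of all tested genes. The glia list took 0.00305% to 0.00597% of the intestine IP libraries, against 0.0157% to 0.0265% of intestine total RNA, and 0.0137% to 0.0185% of the neurons B IP libraries, against 0.0182% to 0.0293% of neurons B total RNA. Of 14 tested somatic gonad genes, 6 fell and 1 rose in the intestine IP, and 6 fell and 4 rose in the neurons B IP.

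exc-9 and lim-7, on lists of other cell types, stood on the neurons B side, though their lists held calls on both sides. Of 13 tested excretory and coelomocyte genes, 3 were more enriched in neurons B and 2 in the intestine (0 with equal sums). In the neurons B IP, 3 of the 13 rose and 4 fell, with a median ratio of −1.51. Of 14 tested somatic gonad genes, 3 were more enriched in neurons B and 2 in the intestine (0 with equal sums), with a median neurons B ratio of −1.74. Over all tested genes, 12.5% were more enriched in neurons B and 12.4% in the intestine. exc-9, a gene of the excretory canal list, had 10728, 10430 and 11314 normalized counts in the neurons B IP libraries, against 540, 368 and 273 in neurons B total RNA, and differed by −5.99 (adjusted p = 1.55e-05). lim-7, a gene of the somatic gonad list, had 2584, 3175 and 2438 in the neurons B IP libraries, against 276, 185 and 149 in neurons B total RNA, and differed by −7.10 (adjusted p = 0.00541). In the intestine lim-7 had 4.65, 0 and 45.9 in the IP libraries, against 53.1, 22.9 and 203.7 in total RNA. Those groups overlapped, and the 0 was in the shallow replicate 2. The excretory and coelomocyte list together took 0.00329% to 0.00531% of the intestine IP libraries, against 0.0167% to 0.0212% of intestine total RNA, and 0.0263% to 0.0374% of the neurons B IP libraries, against 0.0214% to 0.032% of neurons B total RNA. Of its 14 genes, 7 were at 0 in an intestine IP library and 1 in a neurons B IP library, and their part in the result was not tested.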

How the data were processed

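Ribosome IP and total RNA libraries of the intestine and neurons B experiments, 3 of each, were read from 1 table per experiment. The deposited values (unit signal) were the authors' normalized counts per gene, scaled separately in each table. The submitters' processing notes name kallisto 0.46.1, DESeq2 1.30.1, R 4.0.4 and build ce11, with no role given. Aligned strand, wash steps and library preparation are not given in the sources used here. Whole reads could not be recovered for a count test. The deposited tables also held the authors' log2 ratios and their standard errors, used only as an alternative.

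Values were taken as log2(value + 1), which understates the fold changes of low genes in general, while a 0 in the shallow intestine IP replicate 2 can enlarge a fall. Genes with a mean of at least 10 in both tables were tested with limma 3.58.1 (trended empirical Bayes, R 4.3.3) for the difference of IP over total RNA between the tables, without a replicate block, and adjusted by Benjamini-Hochberg over all 13459 genes at 0.05. All 12 libraries entered 1 fit, so each gene had 1 spread for both experiments, also in the tests of IP over total RNA. Deviations from the group means of same-numbered IP and total RNA libraries correlated at 0.305, 0.423 and 0.631 in the intestine. That is a hint from the data, and not from the labels, that its numbers pair the samples. The main fit did not use this pairing. In neurons B they correlated at 0.069, 0.027 and 0.113, so there the samples share only a number. The block was fitted in both as an alternative. The code was tested on simulated data, with 50 genes changed at each of 4 sizes. Differences of 1, 2, 3 and 4 on the log2 scale were recovered for 0%, 20%, 36% and 44% of them. The simulation changed few of its 13459 genes and gave 52 calls, against 3346 in the data. Adjustment was therefore stricter in the simulation, and these shares do not measure the power of the test on the data. A difference that did not pass can still be present. Alternatives were pseudocounts, filters, 2 other scalings, a replicate block, weights, the authors' log2 ratios, a threshold of 0.01 and leaving out libraries. Tables were handled in Python 3.11.15 with pandas 2.3.3, numpy 2.4.6 and scipy 1.17.1, and drawn with matplotlib 3.10.9. Gene names and coordinates came from Ensembl release 115 (WBcel235).

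Named were the promoter genes and rpl-22, the 10 largest called differences on each side at or above the median level, of each list the 4 most abundant tested members, the called members with the largest and smallest difference and up to 6 called against the list's main direction, and 8 genes risen in both IPs. A few others are said to be chosen after their values were seen. The members and lists were chosen with earlier results of these data known. A planned search of promoters for motifs was not run, since no promoter sequence was used here.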

Additional observations from a re-analysis of the deposited data

Results flagged for a closer look

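The following results drew attention because the IP moved one way in the intestine and the other way in neurons B, with each move called and the difference itself passing the limma interaction test. Of the tested genes, 25 rose in the intestine IP and fell in the neurons B IP, and 396 fell in the intestine IP and rose in the neurons B IP. Among the 25, erm-1, which ties actin to membranes, had 7954, 3130 and 5215 normalized counts in the intestine IP libraries, against 2433, 1875 and 2581 in intestine total RNA. In neurons B it had 3754, 4404 and 3746 in the IP libraries, against 18229, 6479 and 7138 in total RNA, and its difference was 2.41 (adjusted p = 0.00815). The UDP-glucuronosyltransferase gene ugt-4 had 114.6, 62.5 and 235.1 in the intestine IP libraries, against 28.5, 11.5 and 42.3 in intestine total RNA. In neurons B ugt-4 had 44.3, 24.3 and 15.4 in the IP libraries, against 109, 67.3 and 103.1 in total RNA, and its difference was 4.05 (adjusted p = 0.00762). Its relative ugt-64 had 1584, 1279 and 1051 in the intestine IP libraries, against 860, 750 and 654 in intestine total RNA. In neurons B ugt-64 had 911, 885 and 1138 in the IP libraries, against 1815, 2023 and 2036 in total RNA, and its difference was 1.79 (adjusted p = 0.00199). The groups did not overlap in either experiment for these 3 genes, and each of the 3 differences missed the threshold when libraries were scaled to equal sums.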

How the results depend on the processing

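Higher enrichment in the intestine (1670 genes) was called for 613 with libraries scaled to equal sums, 1036 with medians aligned, 3302 with the log2 ratios of the authors' deposited table and 794 at an adjusted p under 0.01. Higher enrichment in neurons B (1676 genes) was called for 2903 with no filter on low values. In the intestine IP, genes risen (2950) were 1807 with equal sums, and genes fallen (2952) were 7492 with equal sums and 1364 with a quality weight for each table. Without single libraries or replicate numbers, the counts ran between 518 and 2412 for the intestine side, 938 and 2054 for the neurons B side, 2121 and 3335 for the intestine risen, 1216 and 3857 for the intestine fallen, 2556 and 3939 for the neurons B risen and 2365 and 4707 for the neurons B fallen. Leaving out a replicate number removes 4 libraries, and 518, 938 and 1216 are all without replicate 1. The single library that moved a count by over 1.5 times was intestine total RNA replicate 1, without which 1620 genes fell in the intestine. Of 363 named genes 233 were called, 0 changed sign under any alternative with a call, 69 lost the call with equal sums and 55 without some single library. The causes were not tested. With the replicate number as a block, 2812 genes were higher in the intestine and 2089 in neurons B. The block ended no call of the 363 named genes, and 30 of them passed with it though not without it. Depth limits low genes most in intestine IP replicate 2.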

Other observations

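Lists of general cell functions were examined beside the tissue lists. The 82 tested cytosolic ribosomal protein genes had a median difference of 0.24 with the authors' scaling and −0.54 with equal sums, against 0.38 and −0.38 over all tested genes. The 33 proteasome subunit genes had a median of 0.41, and 0 of them was called with limma (1 with the replicate block, 3 at an unadjusted p under 0.05). Nuclear-encoded genes of oxidative phosphorylation had median log2 ratios of 1.27 in the intestine IP and 0.45 in the neurons B IP, with 30 and 11 of 42 risen. The 12 mitochondrially encoded messages, which cytosolic ribosomes do not translate, had medians of −1.14 in the intestine IP and −2.70 in the neurons B IP, with 7 and all 12 fallen. Mitochondrial ribosomal protein genes had medians of 0.35 in the intestine IP and −0.59 in the neurons B IP. Genes of folding and translocation in the endoplasmic reticulum had medians of 1.18 in the intestine IP and 0.35 in the neurons B IP. Counts of called differences are not given for these mitochondrial and reticulum lists, since leaving out single libraries moved them by over 1.5 times.

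Of 16 tested genes of one-carbon and vitamin B12 metabolism, 8 were more enriched in the intestine (3 with equal sums, and 5 without intestine IP replicate 1 or neurons B total RNA replicate 3), with a median difference of 1.69. Among histone genes, his-71, which encodes a variant of histone H3, had 1215, 608 and 2638 normalized counts in the intestine IP libraries, against 319, 322 and 1150 in intestine total RNA. Its neurons B values were 13561, 18218 and 21649 in the IP libraries, against 843, 1049 and 707 in total RNA. It rose in neurons B (4.35), was not called in the intestine (1.35), and differed by −3.0 (adjusted p = 0.0128).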
